A study of Mus musculus with 9 samples.

Results

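The genes described here are 50 genes of the cell cycle and of DNA replication, listed by their symbols. They cover the loading and firing of replication origins, the E2F and forkhead factors that switch on cycle genes, the cyclins and their kinases, the machinery of mitosis, and the inhibitors of the cyclin-dependent kinases. Of the 50 genes, 49 had a probe set that carries their symbol alone, out of 18193 genes tested in all. Ccnb1 had none and is not analysed here. Where a gene had several probe sets, the brightest on average over the 9 arrays was taken, so the choice did not use the differences between populations.

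Cells of dissociated back skin, taken at postnatal day 2, had been sorted on GFP and on CD133, a surface protein encoded by Prom1. Gate R3 held GFP+CD133+ cells and gate R2 held GFP-CD133+ cells, both labelled as dermal papilla cells, which form the signalling niche under the hair matrix. Gate R1 held GFP-CD133- cells, labelled as total dermal cells without the papilla. Each gate was sampled from mice 2, 4 and 5 with 1 array per mouse, from a yield of roughly 50000 cells per population, and RNA was amplified before hybridisation. The labels used here name neither the strain nor the gene that drives GFP, and no allele, treatment or sex is given for any gate.

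The gates were checked against marker genes. The list of 10 papilla markers includes the gate gene Prom1. By the test described below, 9 were called higher in R3 than in R1 and 8 in R2 than in R1. In R3 against R2, 3 of the 10 were called higher and 2 lower. Prom1 averaged 10.32 in R3 and 11.85 in R2, and Sox18 averaged 8.94 and 10.70. The R1 gate was not free of other lineages: its 10 keratinocyte markers averaged 10.88 to 11.37 log2 units, against 7.69 to 8.65 in R3 and 7.98 to 8.08 in R2. The R2 arrays carried endothelial markers, averaging 8.58 to 8.87, against 5.99 to 6.29 in R3 and 6.99 to 7.37 in R1. The R3 arrays carried Schwann and glial markers, averaging 9.05 to 9.41, against 5.28 to 5.83 in R2 and 6.74 to 7.26 in R1. All values are log2 intensities per probe set. A level can be set against the same gene in another gate, but not against another gene. Probe sets of olfactory receptor genes, which skin is not known to use, gave a guide to background, with a 95th percentile of 5.14 to 5.46 over the arrays.

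A dividing cell licenses its replication origins in G1 by loading the Mcm2 to Mcm7 helicase with Cdc6 and Cdt1, then fires them in S phase with Cdc45 and the GINS complex. E2F factors, held back by the retinoblastoma protein until cyclin D and cyclin E kinases act, switch on the replication genes, and Foxm1 with the DREAM and MuvB complexes governs the later mitotic genes. Cdkn1 and Cdkn2 proteins hold the kinases in check. The papilla is known as a compartment whose cells divide rarely once the follicle is formed, while the surrounding skin of the newborn grows fast.

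Most of the cell cycle genes had lower means in both CD133+ gates than in R1, and the lowest in R3. A gene is called below where limma's moderated test over all 18193 genes gave an adjusted p under 0.05 (Benjamini-Hochberg). Against R1, 31 of the 49 genes fell in R3 (63.3%) and 0 rose, where 10.8% of all genes fell and 7.9% rose. They included 12 of 16 replication genes, 9 of 13 mitotic genes and all 3 of the measured S to M cyclins and Cdk1. The 49 genes were brighter on average, with gate means of 8.28 to 8.96 log2 units, than all genes, with 6.86 to 6.92. The shares of all genes take in dim genes too, and no share at like brightness is given. The median change of the 49 genes was -0.68 log2 units, against -0.01 over all genes, and 46 of the 49 changes lay below 0. The R3 arrays all lay below the R1 arrays for 36 genes (73.5%) and all above for 0, against 18.9% and 15.5% of all genes. By an unadjusted p under 0.05, limma found 36 lower and 0 higher, against 3256 lower and 2427 higher of all 18193 genes.

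Set against R1, R2 showed the same direction. Here 8 of the 49 genes fell (16.3%) and 0 rose, where 6.16% of all genes fell and 6.89% rose. Those 8 were Mcm2, Mcm3, Mcm5, E2f2, Foxm1, Ccnd2, Bub1b and Cdkn2c. The median change was -0.37, against -0.02 over all genes. The R2 arrays all lay below the R1 arrays for 26 genes (53.1%) and all above for 1, Cdkn1b, where the share of all genes was 15.4% in each direction. At an unadjusted p under 0.05, 22 were lower and 0 higher, against 2376 lower and 2446 higher of all 18193 genes. The count depends on the probe sets and arrays used: it was 17 with a gene's probe sets averaged, 15 with probe sets tested singly and 4 to 7 with 1 array left out. Over all genes, 1554 to 1990 were called in either direction with 1 array left out. Tested singly, a gene with several probe sets has more than 1 chance of a call. That held for 38 of the 49 genes and 9010 of all 18193. The counts of 17 and 15 carry no share of all genes here, so they do not show a stronger shift.

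Between the CD133+ gates, R3 against R2, calls were few. Mcm7, E2f8 and Cdc20 fell, 3 of the 49 genes (6.12%), and 0 rose, where 3.06% of all genes fell and 1.97% rose. The shift itself was seen more widely than the calls: the median change was -0.30, against -0.01 over all genes, and 40 of the 49 changes (81.6%) lay below 0, against 51.9% of all genes. The R3 arrays all lay below the R2 arrays for 20 genes (40.8%) and all above for 2, Plk1 and Cdkn2a, against 12.8% and 9.98% of all genes. At an unadjusted p under 0.05, 19 were lower and 1, Cdkn2a, was higher, against 1994 lower and 1291 higher of all 18193 genes. The 3 comparisons share arrays, so their values for a gene are not independent of each other.

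The gate means ran R3 below R2 below R1 for 36 of the 49 genes (73.5%), against 22.8% of all genes. The opposite order was seen for 0 of the 49, against 18.4% of all genes. For 13 genes (26.5%) no array broke that order, with every R3 array below every R2 array and every R2 array below every R1 array, where 2.21% of all genes did so. These 13 were Mcm2, Mcm3, Mcm6, Mcm7, Rrm2, E2f8, Cdk1, Aurkb, Bub1, Top2a, Mki67, Cdc20 and Cdkn2c. The order is that of the chosen probe sets. In R3 against R2, other probe sets of Mcm2, Mcm3, Bub1 and Top2a had changes above 0, none of them called. They reached 0.36 in Mcm2 and 0.29 in Bub1. All other probe sets of Mcm6, Mcm7, Rrm2, E2f8, Aurkb and Cdc20 had changes below 0. In these bulk samples, fewer dividing cells in a gate and less of each RNA per cell cannot be told apart.

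**Figure D1:**
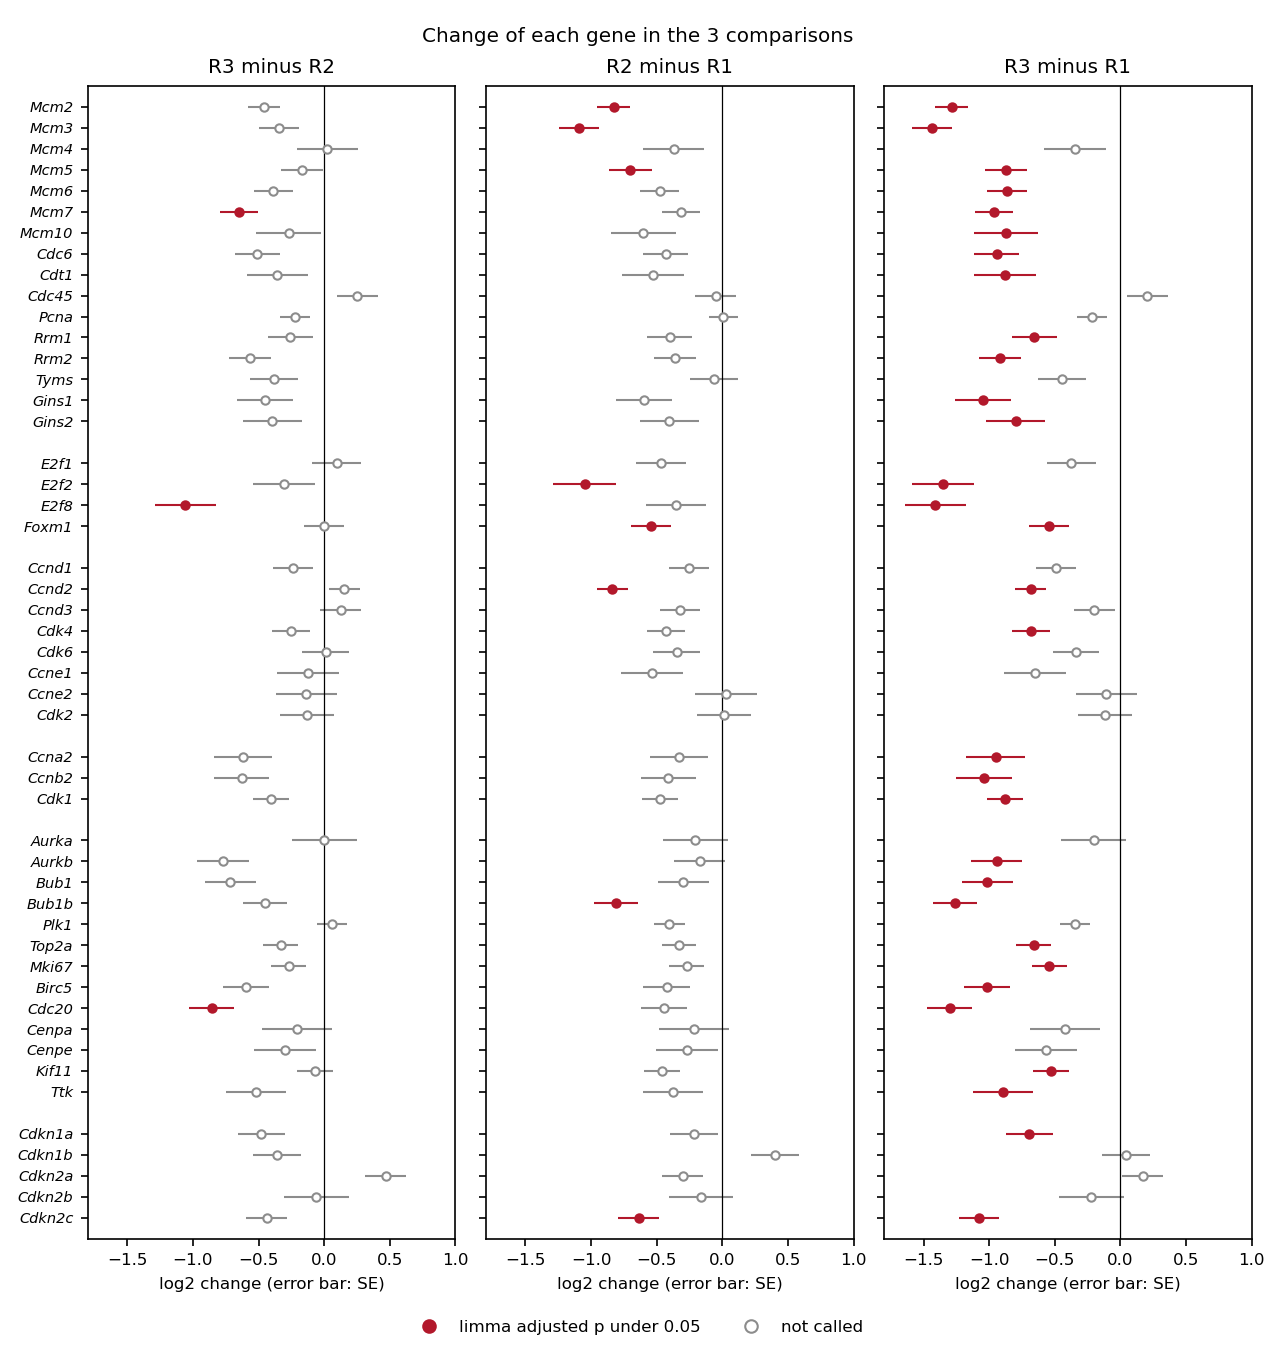
Log2 change of each measured gene, grouped by role, in R3 minus R2, R2 minus R1 and R3 minus R1, with bars for limma's standard error and filled points for called genes (n = 3 arrays per gate). The changes lie mostly left of 0 in each comparison, and 31 of 49 were called lower in R3 minus R1, against 8 in R2 minus R1 and 3 in R3 minus R2.

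The promoter sequences show what the genes of the phases have in common in their DNA, which no array value enters. RefSeq windows (build GRCm38.p6) from 250 bases before to 50 bases after the annotated start were found for 41 of the 50 genes, 6 of them with several windows, and a gene was counted if any of its windows held the letters. The E2F-type words searched were TTTCCCGC or TTTGGCGC or TTTCGCGC or TTTGCCGC, the CHR-type words (the cell cycle homology region bound by the DREAM and MuvB complexes) were TTTGAA or TTCGAA, and the CCAAT word stands for the site of the factor NF-Y. Both strands were read, and overlapping matches were counted singly. Below are the 200 bases before the start of 5 genes, chosen to show replication genes with E2F-type words (Mcm6, Cdc6), mitotic genes with CHR-type words (Cdc20, Top2a) and a gene with both (Cdk1). Capitals mark every match to any of these words, on either strand.
Mcm6: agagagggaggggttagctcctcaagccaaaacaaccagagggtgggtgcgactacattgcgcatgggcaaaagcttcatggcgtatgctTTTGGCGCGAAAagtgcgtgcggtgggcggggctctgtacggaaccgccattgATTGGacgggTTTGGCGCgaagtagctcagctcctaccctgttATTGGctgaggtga
Cdc6: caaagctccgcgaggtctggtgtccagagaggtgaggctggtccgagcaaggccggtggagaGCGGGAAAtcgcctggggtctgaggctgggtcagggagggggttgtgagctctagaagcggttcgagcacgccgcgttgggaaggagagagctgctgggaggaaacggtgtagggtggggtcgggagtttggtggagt
Cdk1: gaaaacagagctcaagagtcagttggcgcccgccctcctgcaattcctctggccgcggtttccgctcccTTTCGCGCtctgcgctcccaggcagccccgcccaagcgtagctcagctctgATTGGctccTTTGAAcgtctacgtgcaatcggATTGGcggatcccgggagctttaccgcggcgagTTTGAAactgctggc
Cdc20: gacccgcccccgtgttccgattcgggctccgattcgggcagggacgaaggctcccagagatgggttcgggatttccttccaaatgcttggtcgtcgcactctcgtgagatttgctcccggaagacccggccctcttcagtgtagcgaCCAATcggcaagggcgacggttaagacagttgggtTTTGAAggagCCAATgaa
Top2a: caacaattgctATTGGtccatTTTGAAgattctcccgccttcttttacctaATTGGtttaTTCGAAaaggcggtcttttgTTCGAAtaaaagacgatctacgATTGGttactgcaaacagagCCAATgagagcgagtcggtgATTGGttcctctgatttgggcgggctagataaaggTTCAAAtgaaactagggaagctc
The printed stretches lie at chr1:128359706-128359905 (minus strand) for Mcm6, chr11:98907951-98908150 (plus strand) for Cdc6, chr10:69352913-69353112 (minus strand) for Cdk1, chr4:118437344-118437543 (minus strand) for Cdc20 and chr11:99024190-99024389 (minus strand) for Top2a, and each runs 5′ to 3′ on the strand of its gene.

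An E2F-type word was present in 10 of the 41 genes (24.4%), against 3.81% of the 14452 tested genes with a window. Replication genes held it in 6 of 13 (46.2%) and mitotic genes in 0 of 12. CHR-type words ran the other way, in 10 of 12 mitotic genes (83.3%) and 3 of 13 replication genes (23.1%), against 17.5% of tested genes. CCAAT was found in 31 of the 41 (75.6%), 11 of 12 mitotic and 10 of 13 replication genes among them, against 42.0% of tested genes. In Mcm6 the E2F-type words began at positions -110, -106 and -47 from the start, the first pair overlapping. In Cdc6 the word lay on the opposite strand at -138. Cdk1 held an E2F-type word at -131 and CHR-type words at -71 and -15. Cdc20 held its CHR-type word at -18, and Top2a held CHR-type words at -179, -140, -120 and -23.

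The words were found both in genes that fell and in genes that were not called. Of the 25 genes with a window that were lower in R3 than in R1, 8 held an E2F-type word and 13 a CHR-type word. Of the 15 measured genes with a window that were not called, 2 held an E2F-type word and 5 a CHR-type word. A match is a string of letters and not evidence of binding, and no match says only that these letters are not in this window.

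**Figure D2:**
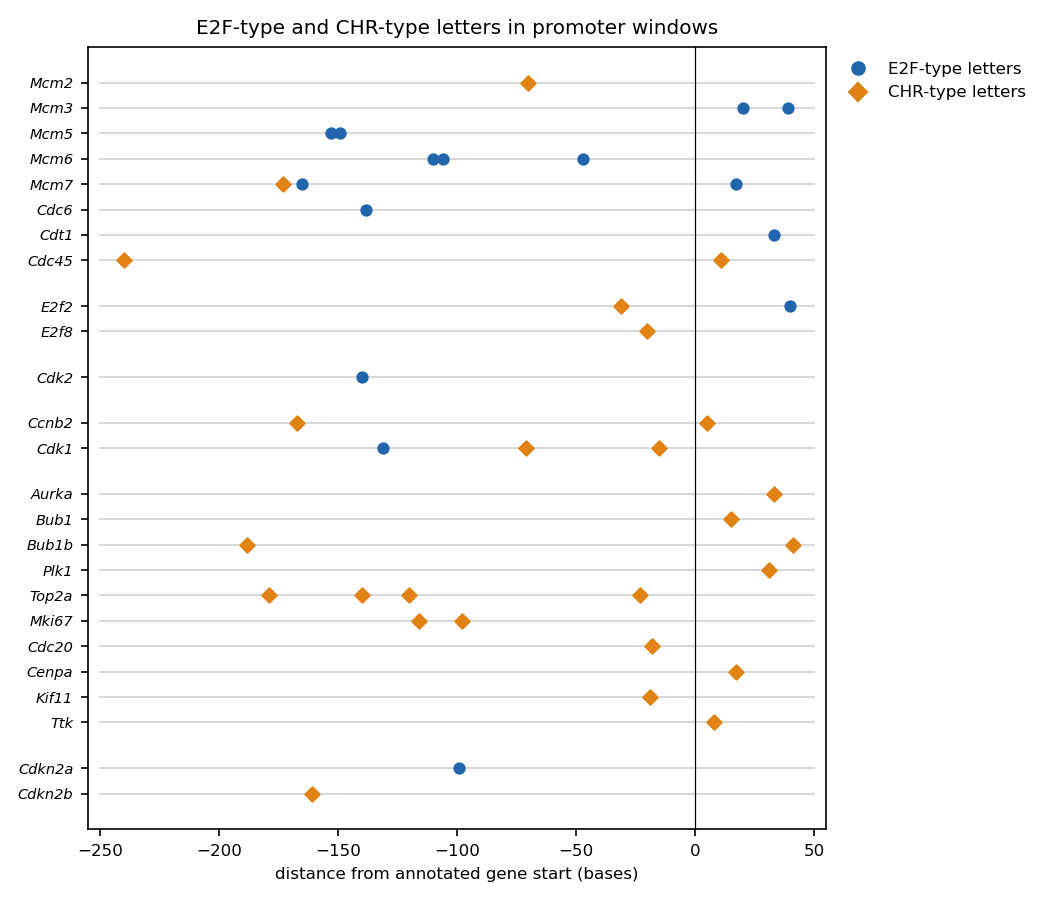
Positions of E2F-type and CHR-type words in promoter windows of the listed genes that held either, in bases from the annotated start, grouped by role. Each grey line is a gene and carries the words of all its windows. The E2F-type words lie in 6 of 13 replication genes and 0 of 12 mitotic genes, and the CHR-type words in 10 of 12 mitotic genes.

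The mean of 15 of the 16 replication genes lay below R1 in R3, and likewise in R2. Of the 16, 12 (75%) fell in R3 against R1, with a median of -0.87. In R2 against R1, 3 fell (18.8%), with a median of -0.42. In R3 against R2, 1 fell (6.25%), with a median of -0.37. Of all genes, 10.8%, 6.16% and 3.06% fell in these comparisons. The counts of each role group are to be read against those shares. Averaged over the 16, the arrays read 8.58 to 8.76 in R3, 8.94 to 9.05 in R2 and 9.39 to 9.47 in R1, so the gates did not overlap. In what follows array values are given for mice 2, 4 and 5 in that order.

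Mcm2, a helicase subunit that is often used to mark licensed cells, read 7.0, 7.21 and 7.20 in R3, 7.59, 7.61 and 7.59 in R2, and 8.45, 8.57 and 8.26 in R1. No gate overlapped another. Its level was 2.44-fold lower in R3 than in R1 (log2 change -1.29, SE 0.13, adjusted p = 0.000127) and 1.77-fold lower in R2 than in R1 (adjusted p = 0.00229). The change in R3 against R2 was -0.46, with an adjusted p of 0.0724.

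Mcm3, another subunit of the same ring, read 8.53, 8.23 and 8.40 in R3, 8.63, 8.83 and 8.72 in R2, and 10.08, 9.61 and 9.77 in R1. Every R1 array lay above every CD133+ array, and R3 lay just below R2. It was 2.71-fold lower in R3 than in R1 (log2 change -1.44, SE 0.15, adjusted p = 0.000195), the widest change of the 49 genes in that comparison, and 2.14-fold lower in R2 than in R1 (adjusted p = 0.00137). In R3 against R2 its change was -0.34, with an adjusted p of 0.274.

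Mcm7, a further subunit, read 10.46, 10.08 and 10.04 in R3, 10.86, 10.83 and 10.83 in R2, and 11.33, 11.06 and 11.07 in R1. R3 lay below R2 in all 3 mice, 1.57-fold lower (log2 change -0.65, SE 0.15, adjusted p = 0.0342), and 1.95-fold below R1 (adjusted p = 0.00155), while its change in R2 against R1, -0.32, was not called. The R3 against R2 call was lost when any 1 of R3 replicates 4 and 5 or R2 replicates 2, 4 and 5 was left out, with adjusted p of 0.0815 to 0.119, and with its probe sets averaged (0.0822). Of its other 3 probe sets, 1 was called lower in R3 against R2 (-0.68, adjusted p = 0.0121).

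Mcm6, whose promoter is shown above, read 10.59, 10.48 and 10.62 in R3, 10.75, 10.97 and 11.15 in R2, and 11.37, 11.26 and 11.66 in R1. These 9 arrays fell into the gate order with no overlap, and R3 was 1.82-fold below R1 (adjusted p = 0.00346). Mcm5 fell 1.83-fold in R3 and 1.62-fold in R2 against R1. The R2 call of Mcm5 was lost without any 1 of R2 replicates 2 and 5 or R1 replicates 4 and 5 (adjusted p 0.0526 to 0.0673). Mcm4, the remaining subunit, read 9.32 to 10.18 in R3, 9.48 to 9.89 in R2 and 9.87 to 10.42 in R1. Its gates overlapped and it was not called, with a change of -0.35 in R3 against R1 (adjusted p = 0.362).

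Cdc6, the loading factor whose promoter is also shown, read 6.94, 6.86 and 6.82 in R3, 7.25, 7.58 and 7.32 in R2, and 7.45, 8.06 and 7.95 in R1. R3 lay below both other gates on every array, while R2 and R1 overlapped. It was 1.92-fold lower in R3 than in R1 (log2 change -0.94, adjusted p = 0.00457). Its partner Cdt1 was 1.84-fold lower in R3 than in R1 (adjusted p = 0.0283). That call was lost without any 1 of R3 replicates 2 and 4 or R1 replicates 2 and 5 (0.0695 to 0.0951). It was also lost with the probe sets of Cdt1 averaged. The GINS subunits Gins1 and Gins2, which complete the active helicase, were 2.06-fold and 1.74-fold lower in R3 than in R1. The Gins1 call (adjusted p = 0.00783) was lost with its probe sets averaged (0.0906). In a fit of all probe sets, the other probe set of Gins1 changed by 0.10 and was not called (adjusted p = 0.785).

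Not every call of a chosen probe set held up. Gins2 (adjusted p = 0.0361) and the origin factor Mcm10 (1.83-fold lower, adjusted p = 0.0349) each lost the call when 1 array was left out, in 5 of the 6 cases for each. Those were all but R3 replicate 5 for Gins2 and all but R1 replicate 5 for Mcm10, with adjusted p of 0.0644 to 0.116 and 0.0553 to 0.109. With the mouse as a block, their adjusted p was 0.0671 and 0.0548. Both other probe sets of Mcm10 were called lower in R3 against R1 in a fit of all probe sets. They changed by -1.56 and -1.08 (adjusted p = 0.000144 and 0.00116), so it was the chosen probe set of Mcm10 whose call was fragile. The other probe set of Gins2 changed by -0.38 and was not called (adjusted p = 0.162).

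Rrm2, the regulated subunit of the enzyme that makes deoxynucleotides, read 10.11, 10.40 and 10.53 in R3, 10.75, 10.97 and 11.00 in R2, and 11.02, 11.36 and 11.41 in R1. It was 1.89-fold lower in R3 than in R1 (adjusted p = 0.00351), with a change of -0.56 in R3 against R2 that was not called (adjusted p = 0.0842, and 0.0319 with the mouse as a block). The other subunit, Rrm1, was 1.58-fold lower in R3 than in R1 (adjusted p = 0.0259). Its call was lost without any 1 of R3 replicates 2 and 5 or R1 replicates 2 and 5 (0.0623 to 0.0841). With the probe sets of Rrm1 averaged it was lost as well (adjusted p = 0.441). In the fit of all probe sets, its others changed by -0.49 and 0.46, and neither was called (adjusted p = 0.118 and 0.443).

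Some replication genes did not follow. Pcna, the sliding clamp of the polymerases, read 11.48, 11.59 and 11.51 in R3, 11.81, 11.75 and 11.69 in R2, and 11.85, 11.71 and 11.66 in R1. Its R3 arrays were the lowest, but its change against R1 was only -0.22 (95% confidence interval -0.47 to 0.04, adjusted p = 0.228). Cdc45, which joins the helicase at firing, read 7.42, 7.68 and 7.65 in R3, 7.09, 7.41 and 7.49 in R2, and 7.18, 7.42 and 7.54 in R1. It was the only replication gene of the 16 whose R3 mean lay above R1, at 0.20 (interval -0.15 to 0.55, adjusted p = 0.425). A second, dimmer probe set of Cdc45 had the opposite sign. It changed by -0.38 in R3 and -0.55 in R2 against R1 and was called in neither (adjusted p = 0.336 and 0.193). Tyms, thymidylate synthase, read 5.26 to 5.64 in R3, 5.66 to 6.06 in R2 and 5.64 to 6.23 in R1, near the background guide, and was not called.

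**Figure D3:**
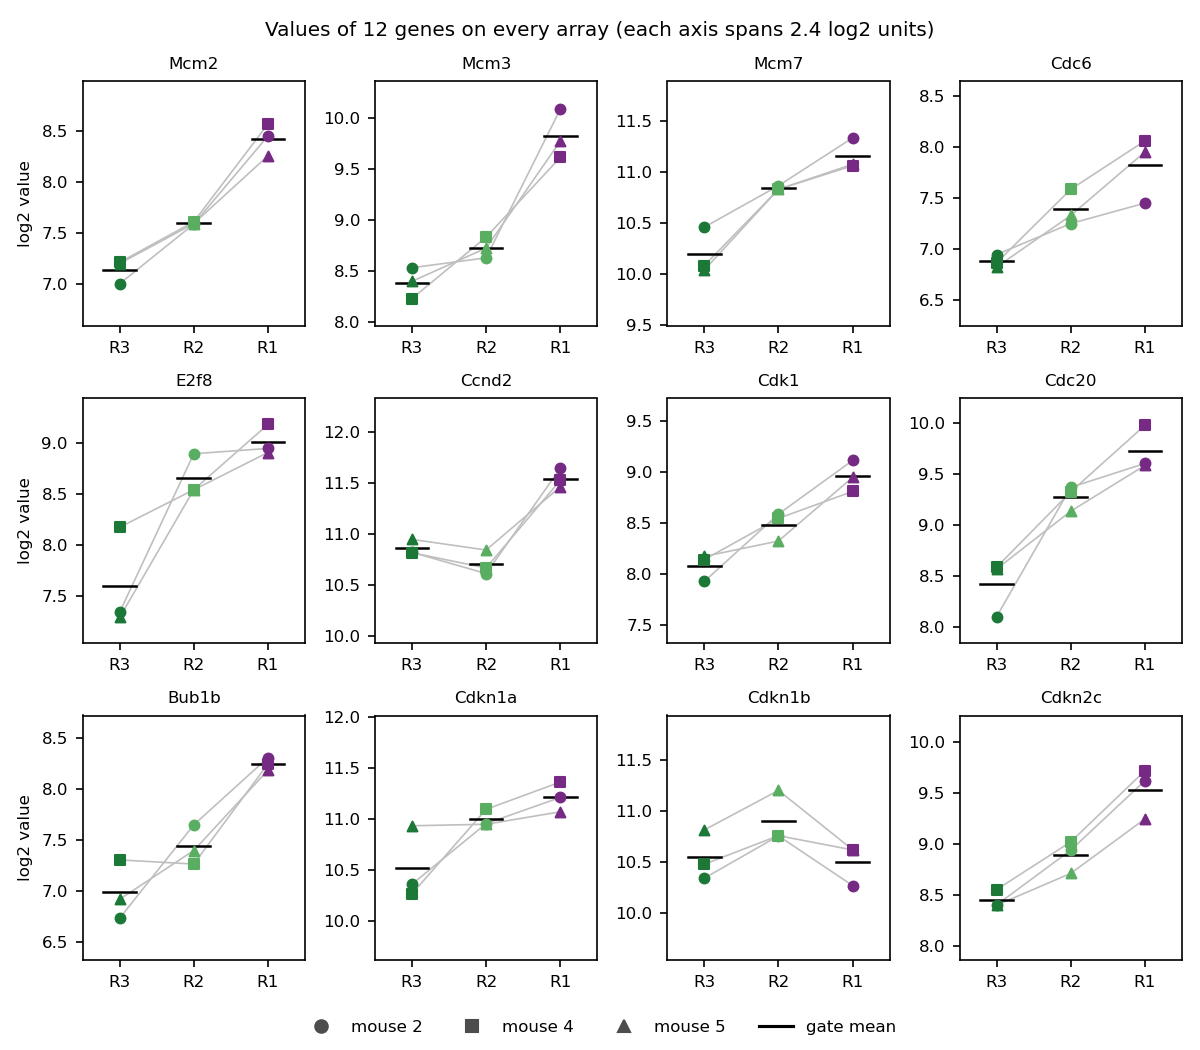
Log2 values of 12 genes on each array, by gate (R3, R2, R1), with the gate mean as a bar, each mouse as its own symbol and lines joining the arrays of a mouse; each axis spans 2.4 log2 units. Mcm2, Mcm3, Mcm7, E2f8, Cdk1, Cdc20 and Cdkn2c show no overlap between neighbouring gates, and the Cdkn1b mean is highest in R2.

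Of the 4 transcription factors of the cycle, 3 fell in R3 against R1 (E2f2, E2f8 and Foxm1), 2 fell in R2 against R1 (E2f2 and Foxm1) and 1 fell in R3 against R2 (E2f8). E2f8, an atypical E2F that represses E2F targets late in S phase and is itself induced in S phase, read 7.34, 8.17 and 7.29 in R3, 8.89, 8.54 and 8.54 in R2, and 8.95, 9.18 and 8.91 in R1. Its R3 arrays lay below all others. It was 2.66-fold lower in R3 than in R1 (log2 change -1.41, SE 0.23, adjusted p = 0.00255) and stood 2.08-fold below R2 in R3 (log2 change -1.06, SE 0.23, adjusted p = 0.0311). The R3 against R2 call was lost when any 1 of R3 replicates 2 and 5 or R2 replicates 2, 4 and 5 was left out (0.0626 to 0.112).

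E2f2, an activating E2F, read 6.07, 6.46 and 6.17 in R3, 6.77, 6.77 and 6.07 in R2, and 7.85, 7.72 and 7.18 in R1. R1 stood apart and the CD133+ gates overlapped. It was 2.56-fold lower in R3 than in R1 (adjusted p = 0.00361) and 2.07-fold lower in R2 than in R1 (adjusted p = 0.018), the second call being lost without R1 replicate 2 or 4 (0.0654 and 0.0625).

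Foxm1, the forkhead factor of the G2 and M genes, read 7.08, 7.23 and 6.92 in R3, 7.0, 7.24 and 6.99 in R2, and 7.80, 7.70 and 7.37 in R1. R3 and R2 overlapped, and each was 1.46-fold below R1 (adjusted p = 0.0352 and 0.0461). Both calls were fragile. The R3 call was lost without any 1 of R3 replicates 2 and 5 or R1 replicates 2 and 4 (0.0819 to 0.112), and the R2 call without any R2 array or R1 replicate 2 or 4 (0.064 to 0.138). E2f1, the best known activator, read 7.97, 8.0 and 7.97 in R3, 7.63, 8.01 and 8.02 in R2, and 8.01, 8.74 and 8.31 in R1. This brightest probe set was not called in any comparison, with a change of -0.37 in R3 against R1 (adjusted p = 0.219). Its probe sets disagreed. In a fit of all probe sets, a second one changed by -1.69 in R3 and -1.51 in R2 against R1 and was called lower in both (adjusted p = 0.000206 and 0.000594), and a further, dim one was called in neither.

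Of the 8 G1 and G1/S cyclins and kinases, 2 fell in R3 against R1 (Ccnd2 and Cdk4), 1 in R2 against R1 (Ccnd2) and 0 in R3 against R2, where an unadjusted p under 0.05 was likewise reached by 0 in limma. Their median changes were -0.41, -0.34 and -0.12 in those comparisons. Ccnd2, cyclin D2, read 10.82, 10.82 and 10.95 in R3, 10.61, 10.67 and 10.84 in R2, and 11.64, 11.53 and 11.46 in R1. R3 and R2 overlapped, and both lay below every R1 array. It was 1.6-fold lower in R3 than in R1 (adjusted p = 0.00354) and 1.79-fold lower in R2 than in R1 (adjusted p = 0.00163). In the fit of all probe sets, the 6 other probe sets of Ccnd2 changed by -1.69 to -1.18 in R3 against R1, all called lower, and by -1.82 to -0.98 in R2 against R1, 5 of them called lower.

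Cdk4, the kinase partner of the D cyclins, read 9.83, 9.72 and 9.50 in R3, 9.93, 10.09 and 9.79 in R2, and 10.49, 10.42 and 10.18 in R1. It was 1.6-fold lower in R3 than in R1 (adjusted p = 0.00964), with a change of -0.43 in R2 against R1 that was not called (adjusted p = 0.0868). Ccnd1, cyclin D1, read 9.69, 10.13 and 9.84 in R3, 10.09, 10.20 and 10.08 in R2, and 10.42, 10.54 and 10.16 in R1. Its R3 arrays lay below all R1 arrays, with a change of -0.49 just short of the threshold (adjusted p = 0.0527, and 0.039 with the mouse as a block). Both other probe sets of Ccnd1 were called lower in R3 against R1 in the fit of all probe sets, by -0.91 and -0.74 (adjusted p = 0.00983 and 0.0206), and the second of them also in R2 against R1 (-0.73, adjusted p = 0.0298).

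The chosen probe sets of the rest of this group gave no call in the fit without a block. Ccne1, a cyclin of the G1/S step, changed by -0.65 in R3 against R1 (adjusted p = 0.0881) with its arrays apart. With the mouse as a block it was called in R3 against R1 (0.0083) and in R2 against R1 (change -0.53, 0.0256). Ccnd3 (-0.20), Cdk6 (-0.34), Ccne2 (-0.11) and Cdk2 (-0.12) had overlapping R3 and R1 arrays. Among the other probe sets, 1 of Cdk6 was called lower in R3 and in R2 against R1 (-0.74 and -0.71, adjusted p = 0.00663 and 0.0123), and 1 of Ccne1 in R3 against R1 (-0.69, adjusted p = 0.0451).

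All 3 measured genes of the S to M step fell in R3 against R1, with a median of -0.95, and 0 were called in R2 against R1 or in R3 against R2. At an unadjusted p under 0.05, limma gave 1 lower in R2 against R1 and 3 lower in R3 against R2. Of all 18193 genes, 2376 and 1994 were lower at that threshold. Cdk1, the kinase that drives entry into mitosis, read 7.93, 8.15 and 8.18 in R3, 8.59, 8.55 and 8.33 in R2, and 9.12, 8.81 and 8.95 in R1. No gate overlapped another. It was 1.84-fold lower in R3 than in R1 (log2 change -0.88, adjusted p = 0.00194), and its change in R2 against R1, -0.47, lay just outside the threshold (adjusted p = 0.0518).

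Its cyclin partners followed. Ccnb2, cyclin B2, read 8.35, 8.49 and 8.71 in R3, 9.45, 9.16 and 8.82 in R2, and 9.53, 9.90 and 9.23 in R1. R3 lay below all other arrays, and the fall against R1 was 2.05-fold (adjusted p = 0.00762). Ccna2, cyclin A2, read 9.55, 10.00 and 9.28 in R3, 10.33, 10.38 and 9.98 in R2, and 10.66, 10.82 and 10.21 in R1. It was 1.93-fold lower in R3 than in R1 (adjusted p = 0.0155), a call lost without R3 replicate 5 or R1 replicate 2 or 4 (0.0519 to 0.0592). Its change of -0.62 in R3 against R2 was called with the mouse as a block alone (adjusted p = 0.0363).

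Of the 13 mitotic genes, 9 fell in R3 against R1 (69.2%), 1 in R2 against R1 (Bub1b, 7.69%) and 1 in R3 against R2 (Cdc20, 7.69%). Their medians were -0.66, -0.33 and -0.33. Of all genes, 10.8%, 6.16% and 3.06% fell, so the 2 counts of 1 gene lie near the share of all genes. Averaged over the 13, the arrays read 7.63 to 7.83 in R3, 7.99 to 8.27 in R2 and 8.40 to 8.58 in R1, again with no overlap.

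Cdc20, the activator of the anaphase-promoting complex, whose promoter is shown above, read 8.10, 8.59 and 8.57 in R3, 9.37, 9.32 and 9.14 in R2, and 9.60, 9.98 and 9.58 in R1. No gate overlapped the next. It was 2.47-fold lower in R3 than in R1 (log2 change -1.30, SE 0.17, adjusted p = 0.000774) and stood 1.81-fold below R2 in R3 (log2 change -0.86, SE 0.17, adjusted p = 0.0208). The call in R3 against R2 was lost without R3 replicate 2 or R2 replicate 2 or 4 (0.0618 to 0.0791). It rests on 1 probe set: the other 2 changed by -0.02 and -0.34 in R3 against R2 and were not called, and with the probe sets averaged the adjusted p was 0.166.

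Bub1b, the spindle checkpoint protein BubR1, read 6.73, 7.30 and 6.92 in R3, 7.65, 7.26 and 7.39 in R2, and 8.30, 8.24 and 8.18 in R1. R3 and R2 overlapped in 1 array each and R1 lay well above. It was 2.39-fold lower in R3 than in R1 (log2 change -1.26, SE 0.17, adjusted p = 0.000775) and 1.75-fold lower in R2 than in R1 (adjusted p = 0.012, and 0.0511 without R2 replicate 4). The checkpoint kinase Bub1 read 6.85, 6.83 and 7.53 in R3, 7.83, 7.82 and 7.71 in R2, and 7.97, 8.28 and 8.0 in R1. By this probe set of Bub1, R2 stood nearer to R1, and R3 was 2.02-fold below R1 (adjusted p = 0.00567). A second, dimmer one differed in the fit of all probe sets. It was called lower in R2 against R1 (-0.69, adjusted p = 0.0307). In R3 it changed by -0.40 against R1 and 0.29 against R2 and was not called (adjusted p = 0.149 and 0.458).

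Aurkb and Birc5 encode the kinase and the survivin subunit of the chromosomal passenger complex. Aurkb read 7.06, 7.92 and 7.52 in R3, 8.31, 8.24 and 8.26 in R2, and 8.32, 8.58 and 8.43 in R1. Birc5 read 7.76, 7.97 and 8.18 in R3, 8.62, 8.77 and 8.31 in R2, and 9.19, 9.04 and 8.74 in R1. The R3 arrays of both genes lay below every R2 array, and the R3 levels were 1.92-fold (adjusted p = 0.0086) and 2.03-fold (adjusted p = 0.00339) below R1.

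Top2a, the topoisomerase that untangles sister chromatids, read 7.98, 8.30 and 8.14 in R3, 8.44, 8.62 and 8.36 in R2, and 8.91, 8.75 and 8.75 in R1. Mki67, the gene of the proliferation marker Ki-67, read 10.92, 11.31 and 11.28 in R3, 11.44, 11.49 and 11.40 in R2, and 11.64, 11.70 and 11.81 in R1. Both kept the gate order on every array, with differences of 1.58-fold for Top2a and 1.46-fold for Mki67 in R3 below R1 (adjusted p = 0.00729 and 0.0201). The Mki67 call was lost without R3 replicate 2 or R1 replicate 4 or 5 (0.0541 to 0.0609).

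The kinase Ttk and the spindle motor Kif11 also fell in R3 against R1, by 1.86-fold and 1.44-fold (adjusted p = 0.0242 and 0.0253). The Ttk call was lost without R3 replicate 2 or R1 replicate 4 (0.0812 and 0.0844) and with its probe sets averaged. The Kif11 call was lost without R3 replicate 4 or 5 or R1 replicate 2 (0.0517 to 0.082). The chosen probe sets of Plk1, Aurka, Cenpa and Cenpe were not called. Plk1, a kinase of mitotic entry, read 6.24 in each R3 array, 6.10 to 6.23 in R2 and 6.45 to 6.72 in R1. Both CD133+ gates lay below every R1 array, with changes of -0.34 in R3 and -0.40 in R2 (adjusted p = 0.0707 and 0.0504). Aurka, Cenpa and Cenpe changed by -0.20, -0.42 and -0.57 in R3 against R1 with overlapping arrays. A second probe set of Cenpa, which encodes the centromeric histone, was called lower in the fit of all probe sets, by -1.30 in R3 against R1 and -0.75 in R3 against R2 (adjusted p = 0.000726 and 0.0356), so the probe sets of Cenpa disagreed as well.

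**Figure D4:**
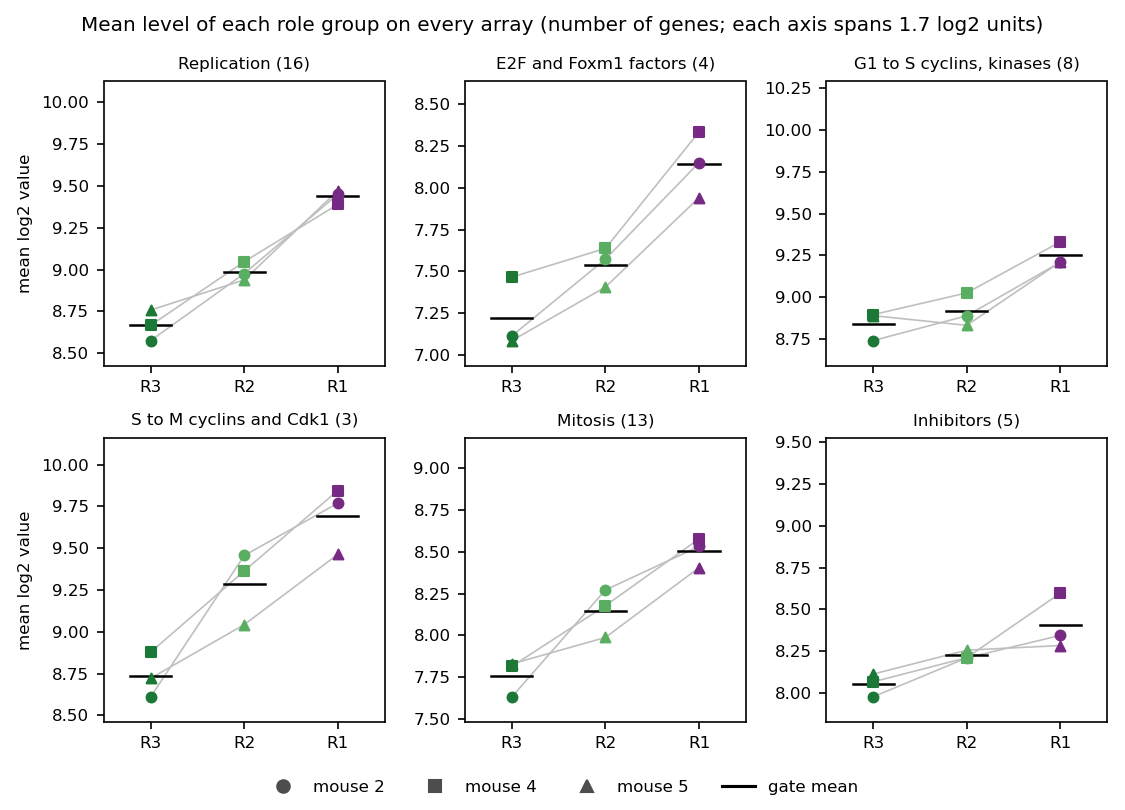
Mean log2 value of each role group on each array, by gate (R3, R2, R1), with points for the 3 mice and each axis spanning 1.7 log2 units. The replication means of 8.58 to 8.76 in R3 lie below 8.94 to 9.05 in R2 and 9.39 to 9.47 in R1, and the mitotic means keep the same order.

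Of the 5 inhibitors, 0 rose in any comparison, and limma gave 1 higher at an unadjusted p under 0.05, Cdkn2a in R3 against R2. Cdkn1a and Cdkn2c fell in R3 against R1, and Cdkn2c fell in R2 against R1. Cdkn2c, which encodes p18, an inhibitor of Cdk4 and Cdk6, read 8.41, 8.56 and 8.40 in R3, 8.94, 9.02 and 8.71 in R2, and 9.62, 9.72 and 9.25 in R1. The gates did not overlap. It was 2.11-fold lower in R3 than in R1 (log2 change -1.08, SE 0.15, adjusted p = 0.00115) and 1.56-fold lower in R2 than in R1 (adjusted p = 0.0242). The R2 call was lost without any 1 of R2 replicates 2 and 5 or R1 replicates 2 and 4 (0.0577 to 0.0839).

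Cdkn1a, which encodes the p53 target p21, read 10.36, 10.27 and 10.93 in R3, 10.95, 11.09 and 10.95 in R2, and 11.21, 11.36 and 11.07 in R1. Its R3 arrays lay below all others, 1.62-fold below R1 (log2 change -0.69, SE 0.18, adjusted p = 0.0249). This call was lost without any 1 of R3 replicates 2 and 4 or R1 replicates 2 and 4 (0.0637 to 0.0899). A second probe set of Cdkn1a changed by 0.01 in R3 against R1 and was not called, so the fall rests on 1 of its probe sets.

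Cdkn1b, which encodes p27, a protein that accumulates in resting cells of many tissues, read 10.34, 10.48 and 10.82 in R3, 10.76, 10.76 and 11.20 in R2, and 10.27, 10.62 and 10.62 in R1. Every R2 array lay above every R1 array, by 0.40 on average (adjusted p = 0.198), and R3 overlapped R1, with a change of 0.04 (interval -0.37 to 0.45, adjusted p = 0.905). It passed the test in none of the 3 comparisons. Cdkn2a, which encodes p16 and p19Arf, read 4.89 to 5.33 in R3, 4.41 to 4.79 in R2 and 4.89 to 5.02 in R1, at or under the background guide. Cdkn2b, which encodes p15, read 5.24 to 5.88 in R3, 5.60 to 5.77 in R2 and 5.50 to 6.39 in R1, near that guide, and was not called.

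A further set of 97 genes of the cycle, which are not among the 49, was counted in the same fit. In R3 against R1, 48 of the 97 fell (49.5%) and 2 rose, with a median of -0.62. Of all genes, 10.8% fell and 7.9% rose. By role, 14 of 27 other replication genes, 29 of 44 other mitotic genes and 5 of 26 other regulators fell. In R2 against R1, 10 fell (10.3%) and 2 rose, with a median of -0.29, where 6.16% of all genes fell and 6.89% rose. By role, 3 other replication genes and 6 other mitotic genes fell and 0 rose (limma gave 1 and 0 higher at an unadjusted p under 0.05). Of the 26 other regulators, 1 fell (3.85%) and 2 rose, with a median of -0.01. The array means of the other regulators were 8.58 to 8.66 in R3, 8.75 to 8.92 in R2 and 8.79 to 8.88 in R1, so R2 and R1 overlapped. In R3 against R2, 8 fell (8.25%) and 0 rose, with a median of -0.33, where 3.06% of all genes fell and 1.97% rose. Here limma gave 1 higher at an unadjusted p under 0.05. With the mouse as a block, the calls in R3 against R2 were 1 other replication gene, 2 other mitotic genes and 2 other regulators.

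Among those called in R3 against R1 with the lowest p, the other replication genes were led by Uhrf1, which helps copy DNA methylation to new strands (2.30-fold lower, adjusted p = 0.000774), and Tk1, the S-phase thymidine kinase (2.33-fold, adjusted p = 0.000774). The other mitotic genes were led by Spc25, a kinetochore subunit (2.32-fold, adjusted p = 0.00096), and Cdca8, the borealin subunit of the passenger complex (2.14-fold, adjusted p = 0.00104). Timeless, a fork protection factor, rose 1.40-fold (adjusted p = 0.0434), a call lost without any array of the gates other than R3 replicate 4 (0.0596 to 0.124) and with the mouse as a block (0.0723).

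Among the other regulators, the pocket protein gene Rb1, whose product holds E2F factors back, was higher in the CD133+ gates, 1.67-fold in R3 (adjusted p = 0.00548) and 2.34-fold in R2 (adjusted p = 0.000437) against R1. Cdkn1c, which encodes the inhibitor p57, was 2.23-fold lower in R3 and 2.04-fold lower in R2 than in R1 (adjusted p = 0.00156 and 0.00425). Ccng2, an unconventional cyclin linked to cell cycle arrest, was 1.7-fold higher in R2 than in R1 (adjusted p = 0.0177) and 1.69-fold below R2 in R3 (adjusted p = 0.036). The first of these calls was lost without R2 replicate 2 or 4 or R1 replicate 2 or 4 (0.0538 to 0.0646), and the second without any array of the gates other than R3 replicate 5 (0.0722 to 0.125). In R3 against R2 the genes of the growth-promoting transcription factors Mycn and Myc fell, Mycn by 2.24-fold (adjusted p = 0.00815) and Myc by 1.39-fold (adjusted p = 0.0475). The Myc call was lost without any 1 of the arrays of the gates (0.0605 to 0.156) and with the mouse as a block (0.0646), while the Mycn call was kept without any 1 of them.

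Markers of other skin cells moved with these comparisons. Against R1, keratinocyte markers fell in R3 and in R2 (10 of 10 in each), leukocyte markers fell (7 of 8 in each), and melanocyte markers fell (5 of 6 in R3 and 4 of 6 in R2). Leukocyte means per array were 7.14 to 7.44 in R3, 6.94 to 7.5 in R2 and 8.88 to 9.22 in R1, and melanocyte means were 6.05 to 7.08, 6.56 to 7.28 and 8.08 to 8.41 in the same order of gates. Fibroblast markers also fell (4 of 7 in each), with means of 10.86 to 10.99 in R3, 11.23 to 11.49 in R2 and 12.31 to 12.41 in R1. Pericyte markers averaged 8.11 to 8.33 in R3, 8.72 to 8.78 in R2 and 9.52 to 9.62 in R1, and 5 of 7 fell in R3 and 4 of 7 in R2 against R1 while 1 rose in each. Skeletal muscle markers averaged 4.98 to 5.24 in R3, 5.34 to 5.50 in R2 and 6.01 to 6.13 in R1. Of these, 4 of 6 fell in R3 and 3 of 6 in R2 against R1. Their means in R3 and R2 lay near the background guide. The fibroblast, pericyte and skeletal muscle means all kept the gate order of the cycle genes with no overlap. The part of any of these skin cells in the lower cycle genes was not tested.

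In R3 against R2, 0 of 10 keratinocyte, 0 of 8 leukocyte and 0 of 6 melanocyte markers were called, where limma's unadjusted p was under 0.05 for 1, 2 and 0 of them. All 8 endothelial markers, 2 of 7 pericyte, 2 of 7 fibroblast and 1 of 6 skeletal muscle markers fell, and all 5 Schwann and glial markers rose, and the part of these cells in the differences between R3 and R2 was not tested. As a measure of RNA quality, the 3′ minus 5′ difference of the β-actin control probe sets was 0.119 to 0.195 in R3, 0.106 to 0.216 in R2 and 0.043 to 0.069 in R1, higher in both CD133+ gates, while that of Gapdh overlapped between all gates. Its part in the results was not tested.

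**Figure D5:**
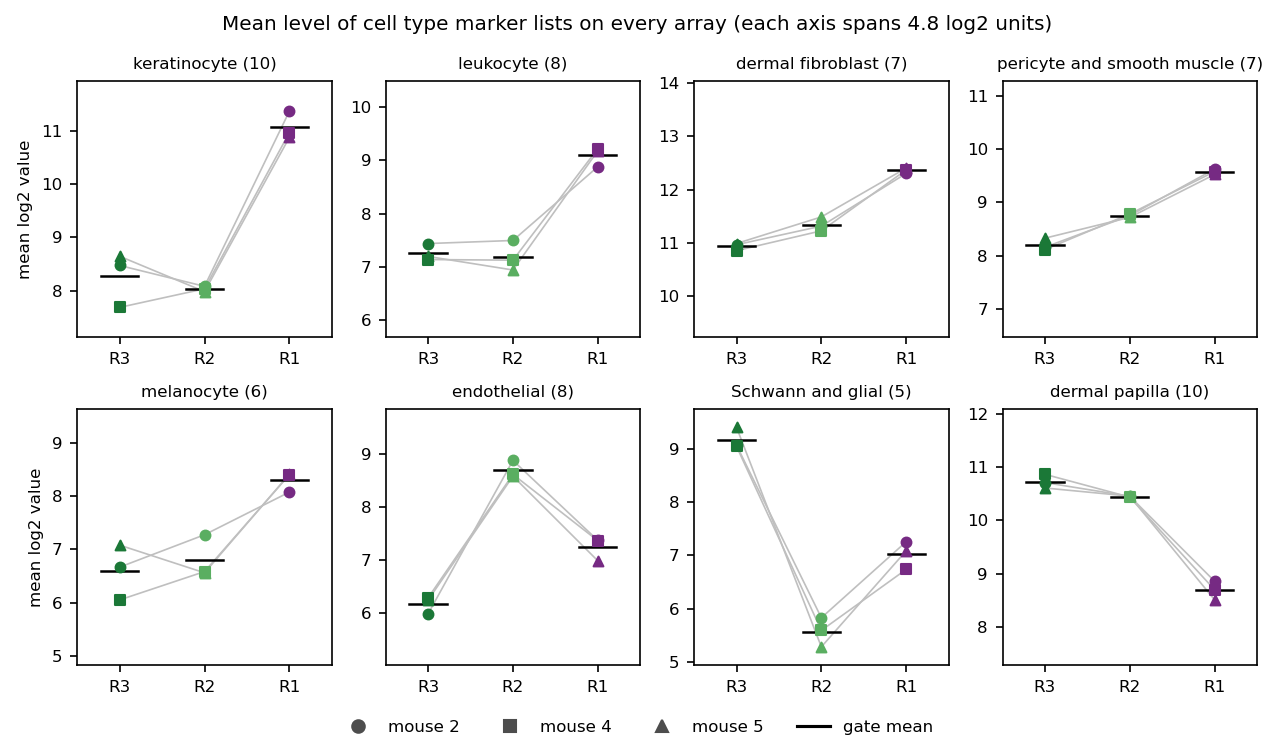
Mean log2 value of the marker lists of skin cell types on each array, by gate (R3, R2, R1). Keratinocyte means of 10.88 to 11.37 in R1 lie above 7.69 to 8.65 in R3 and 7.98 to 8.08 in R2, endothelial means are highest in R2, and Schwann and glial means are highest in R3.

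Other probe sets of the called genes mostly ran the same way. For the 31 genes that fell in R3 against R1, 43 of 48 further probe sets had the same sign, 32 of them were called lower and 0 were called higher. The exceptions belonged to Cdt1, Rrm1, Gins1, Foxm1 and Cdkn1a. In R2 against R1 the sign was shared by 18 of 19, with 13 called lower, and in R3 against R2 by 6 of 6, with 1 called lower. Genes whose chosen probe set was not called could have another that was. This held for 5 genes in R3 against R1 (E2f1, Ccnd1, Cdk6, Ccne1 and Cenpa), 7 in R2 against R1 (Mcm6, Mcm10, E2f1, Ccnd1, Cdk6, Bub1 and Cdc20) and 3 in R3 against R2 (Mcm10, Rrm2 and Cenpa), all lower, and 0 were called higher. Leaving out any 1 array of the compared gates left 21 of the 31 calls of R3 against R1 in place, 3 of the 8 of R2 against R1 (Mcm2, Mcm3 and Ccnd2) and 0 of the 3 of R3 against R2.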

How the data were processed

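RNA from 3 sorted populations of 3 mice was measured on 9 one-colour arrays. The deposited values are log2 intensities per probe set, made by the authors with RMA (background correction, quantile normalization and probe summary), per the submitters' processing notes. Which RMA software and version they used, and whether all arrays went into 1 run, is not given in the sources used here. Folds may be compressed by the amplification, and a shift common to most genes would be removed by quantile normalization. The arrays carry no counts, so their number limits the precision, and RMA values carry no detection call.

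Of 45101 probe sets, 34945 carried 1 symbol in the platform annotation, 932 several and 9224 none, and 34741 were found in the RefSeq gene table (GRCm38.p6, names alone). Only those with 1 symbol were used. Each of 18193 genes took its probe set with the highest mean, and 9010 genes, 38 of the 49 analysed among them, had several.

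Gates and mouse numbers came from the labels. Gates were compared with limma 3.58.1 in R 4.3.3, with 1 coefficient per gate over all 9 arrays, no filter on dim genes, Benjamini-Hochberg adjustment over all genes and a threshold of 0.05. Arrays with the same number hold cells of 1 mouse, which pairs them. Deviations from the gate means correlated at 0.00675 to 0.177 within a mouse and at -0.157 to 0.041 between mice. The fit was checked on simulated data that took their gene means and spreads from the real data and its fit. For R3 against R2 it recovered 10% of simulated 1.5-fold changes, 80% of 2-fold changes and 100% of 4-fold changes. Of its 157 calls there, 12 were of unchanged genes. Fewer genes were changed in the simulation than were called in the data, and the mice were not paired in it. These shares therefore need not hold for the real comparisons. Alternatives were the mouse as a block, leaving out each array, the 6 arrays of a comparison alone, other scalings, other uses of probe sets, a filter on dim genes, another variance model and a fold minimum.

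The listed genes, the further cycle genes, the markers and the tests were chosen with earlier results of these data known. All listed genes could be named, and of the 97 further genes at most 4 per list and comparison, those with the lowest p among the called. Timeless and Rb1 in R3 against R1 were also named, as the 2 genes called higher, after their values were seen. Promoters are RefSeq windows of GRCm38.p6, read with Python 3.11.15 and pandas 2.3.3.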

Additional observations from a re-analysis of the deposited data

How the results depend on the processing

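No listed gene was called higher under any alternative, and 0 of 585 recomputed changes of called genes reversed, while 85 lost their call and 500 kept it. In R3 against R1 the 31 genes called lower became 23 to 28 with 1 array left out and 27 to 36 under the other alternatives. In R2 against R1 the 8 genes became 4 to 7 with 1 array left out, 17 with a gene's probe sets averaged and 15 with probe sets tested singly. In R3 against R2 the 3 genes became 0 to 3 with 1 array left out (0 without R2 replicate 2 or 4, 1 without R3 replicate 2), 1 with the 6 arrays of the comparison alone, and 6 both with probe sets tested singly and with the genes at or above the median gene. Fewer arrays or genes enter some of these fits by construction, and otherwise the cause was not tested. Over all genes, leaving out 1 array gave 582 to 813 calls in R3 against R2 in place of 915, and 1554 to 1990 in R2 against R1 in place of 2375. In R3 against R1 it gave 2519 to 3009. The counts of listed genes under the other alternatives carry no share of all genes here, so they do not show a stronger or weaker shift.

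With the mouse as a fixed block, 5 listed genes were called lower in R3 against R2, with Rrm2 and Ccna2 added, 9 in R2 against R1, with Ccne1 added, and 31 in R3 against R1, where Mcm10 and Gins2 were lost and Ccnd1 and Ccne1 added. The block changed no other call of the listed genes. As a random block the pairing gave 4, 11 and 32. Centring or renormalizing the arrays moved the median change of all genes by -0.0142 to 0.00404 log2 units and turned the sign of uncalled changes alone (Aurka, Cdk6, Foxm1 and Cdk2).

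With 3 mice per gate, a p above the threshold does not show that a gene did not differ. Genes near the background guide, such as Cdkn2a, Cdkn2b and Tyms, cannot be read for small changes.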
